A study of Mus musculus with 10 samples.

Results

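Nucleotide and one-carbon synthesis is followed here through 37 genes for the enzymes that build purines, pyrimidines and deoxynucleotides and that feed serine and folate carbon into them. The genes were taken by symbol from a list of these enzymes, and all 37 were found among the 17658 genes of the deposited table. All 37 also reached the average of 1 FPKM or more that a gene needed to be tested, as did 10225 genes in all. FPKM divide the fragments of a gene by its transcript length and by the library's mapped fragments, so levels can be compared between genes. The list was split by role into purine ring synthesis (8 genes), the AMP and GMP branch with purine salvage (7), pyrimidine synthesis and kinases (8), deoxynucleotide supply (6) and serine and folate (8).

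A purine ring is assembled atom by atom on ribose phosphate to give IMP, from which AMP and GMP are made. A pyrimidine ring is made first and then joined to ribose phosphate to give UMP, the parent of CTP. Ribonucleotide reductase turns ribonucleotides into deoxynucleotides for DNA, and thymidylate synthase makes the thymine nucleotide. Serine gives a carbon unit to folate, and folate carries it to purine and thymidylate synthesis. Resting lymphocytes have small nucleotide pools and enlarge them when an antigen receptor signal takes them towards growth and division.

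The RNA came from B cells of C57BL/6 mice aged 10 weeks, isolated from spleen and lymph node by magnetic removal of other cells. Animals were Nr4a1+/+, called wild type here, or Nr4a1-/-, which lack both working copies of the gene for the nuclear receptor Nur77 in every cell as far as the labels state. Cells had no agent (1 library of each genotype) or 10 µg/mL anti-IgM, which crosslinks the antigen receptor of B cells, for 2 hours (4 libraries of each genotype, with letters A to D). Nothing ties a letter to a separate mouse, so the p-values measure the spread between these libraries, which may be technical.

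The level of the targeted gene overlapped between the labelled genotypes. Nr4a1 stood at 126 FPKM in the wild-type and 126 FPKM in the knockout-labelled unstimulated library. After anti-IgM it stood at 806, 744, 826 and 856 FPKM in wild-type libraries A to D, and 713, 675, 759.96 and 660.2 FPKM in the 4 labelled Nr4a1-/-. They were lower on average (702.05 ± 44.6 against 808 ± 47.2 FPKM, SD, n = 4 each), a difference of -0.20 (limma adjusted p = 0.0432). The groups overlapped and all 4 libraries held high levels, so the latter are called knockout-labelled throughout and each direction between genotypes is between libraries as labelled. The 7 B cell markers found summed to 4116 FPKM in the wild-type and 3918 FPKM in the knockout-labelled unstimulated library, and to 1415 to 1551 FPKM after anti-IgM. The 8 T cell markers summed to 3.20 and 3.14 FPKM before and 8.67 to 12.2 FPKM after it. Of these, 2 were high enough to test and rose, Cd5 by 1.97 (to 6.33 to 9.09 FPKM) and Tcra by 0.85 (to 0.67 to 1.95 FPKM), while Cd3e lay between 0 and 0.10 FPKM. Myeloid markers (7 found) summed to 76.8 and 92.3 FPKM before and 24.5 to 141 FPKM after anti-IgM, highest in library B of each genotype, and 3 tested erythroid genes all fell. The part of other cells in the changes below was not tested. How deeply the libraries were sequenced is unknown, and their relative depth, recovered from the steps of low values in 77 of 176 genes searched, ran from 0.916 to 1.06. Summed FPKM over all genes was 674961 and 595500 in the wild-type and knockout-labelled unstimulated libraries and 557214 to 571784 in the stimulated ones. Knockout-labelled library B stood apart after anti-IgM in genes of dividing cells. Calls between genotypes within the family, and the changes of Rrm1, Rrm2 and Dut with anti-IgM, are given with and without it. In RNA from many cells, fewer cells of a type and less RNA per cell cannot be told apart.

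**Figure D1:**
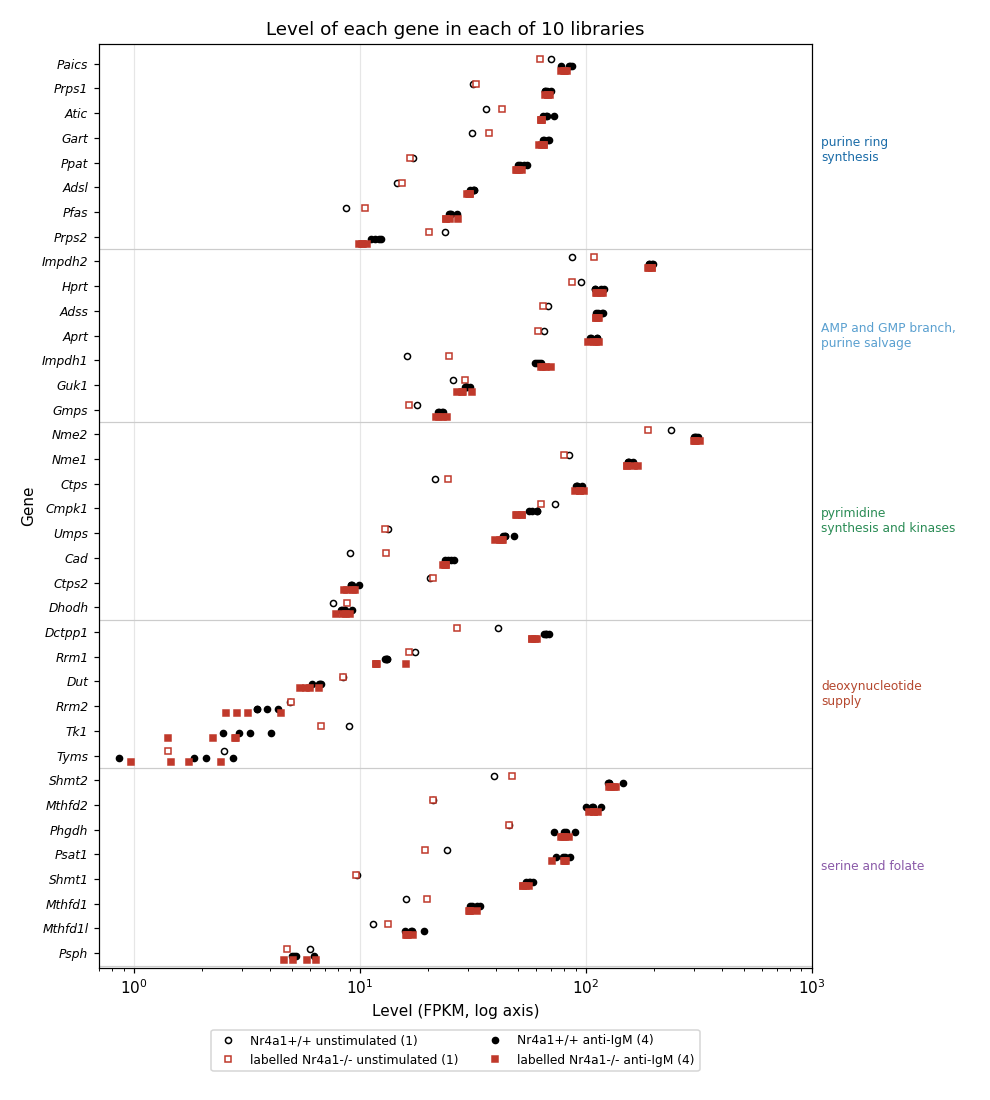
Level of each of the 37 genes (FPKM, log axis) in every library, by branch. Open symbols are the 2 unstimulated libraries, filled symbols the 8 stimulated ones, circles wild type and squares knockout-labelled. All 8 filled symbols lie right of both open ones for the 26 genes that rose at an adjusted p under 0.05 (31.2% of all tested genes rose). They lie left of both for the 7 that fell (47.7% of all tested genes). How many of all tested genes separate in this way from only 2 unstimulated libraries was not counted.

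The family as a whole held more RNA after anti-IgM. Its 37 genes summed to 1333 FPKM in the wild-type and 1288 FPKM in the knockout-labelled unstimulated library, and to 2280 to 2421 FPKM in the 8 stimulated libraries. Their share of all FPKM was 0.197% and 0.216% before and 0.406% to 0.431% after. The genes differed widely in level. Nme2, a nucleoside diphosphate kinase that turns diphosphates into triphosphates, was the highest, at 239 FPKM in the wild-type and 189 FPKM in the knockout-labelled unstimulated library. After anti-IgM it was at 305, 307, 313 and 300.03 FPKM in wild-type libraries A to D, and 307, 300.1, 319 and 304 FPKM in the knockout-labelled ones. Tyms, thymidylate synthase, was the lowest, at 2.49 FPKM in the wild-type and 1.41 FPKM in the knockout-labelled unstimulated library. After anti-IgM it was at 2.74, 0.8600, 2.08 and 1.85 FPKM and 1.46, 2.43, 1.75 and 0.9700 FPKM, and all groups overlapped. Over the 10 libraries 6 genes averaged at least 100 FPKM (Nme2, Impdh2, Nme1, Shmt2, Hprt and Adss) and 6 averaged under 10 FPKM (Dhodh, Dut, Psph, Rrm2, Tk1 and Tyms). Of these 6, 4 act in deoxynucleotide supply.

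The question of the first comparison is which genes changed with antigen receptor stimulation. Changes are on the log2(FPKM + 1) scale, which understates those of low genes, and come from a limma fit that uses every library and holds genotype as a term. Of the 37 genes, 12 rose by at least 1 (adjusted p under 0.05), where 7.94% of all tested genes did, and 2 fell by at least 1, where 12.4% of all tested genes did. Without a minimum size, 26 rose (31.2% of all tested genes) and 7 fell (47.7% of all tested genes), and Guk1, Dhodh, Tyms and Psph passed in neither direction on the deposited scale. The median change was 0.78 over the 37 genes and -0.17 over all tested genes. The latter shift depends on scale: it was -0.031 when each library was scaled to an equal sum (TPM), -0.0022 after quantile normalization and -0.017 with median-of-ratios scaling, and the median of the 37 genes was then 0.94, 0.65 and 0.95. Over all tested genes 812 rose and 1266 fell by at least 1 (39.1% higher), against 50.7% higher with TPM, 51.2% after quantile normalization and 53.8% with median-of-ratios scaling.

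By branch, serine and folate genes had the highest median change (1.19), followed by purine ring synthesis (0.96), the AMP and GMP branch (0.77) and pyrimidine synthesis (0.73). Deoxynucleotide supply had a median of -0.38, which was -0.24 with TPM, -0.021 after quantile normalization and -0.22 with median-of-ratios scaling. In the first 4 branches 25 of 31 genes rose and 3 fell, while in deoxynucleotide supply 1 of 6 rose and 4 fell. Of all tested genes 31.2% rose and 47.7% fell, and whether 4 falls among 6 genes depart from the latter share was not tested. Those 4 falls became 3 when scaled by median-of-ratios, and 2 with TPM or when quantile normalized. The number that rose stayed at 1.

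**Figure D2:**
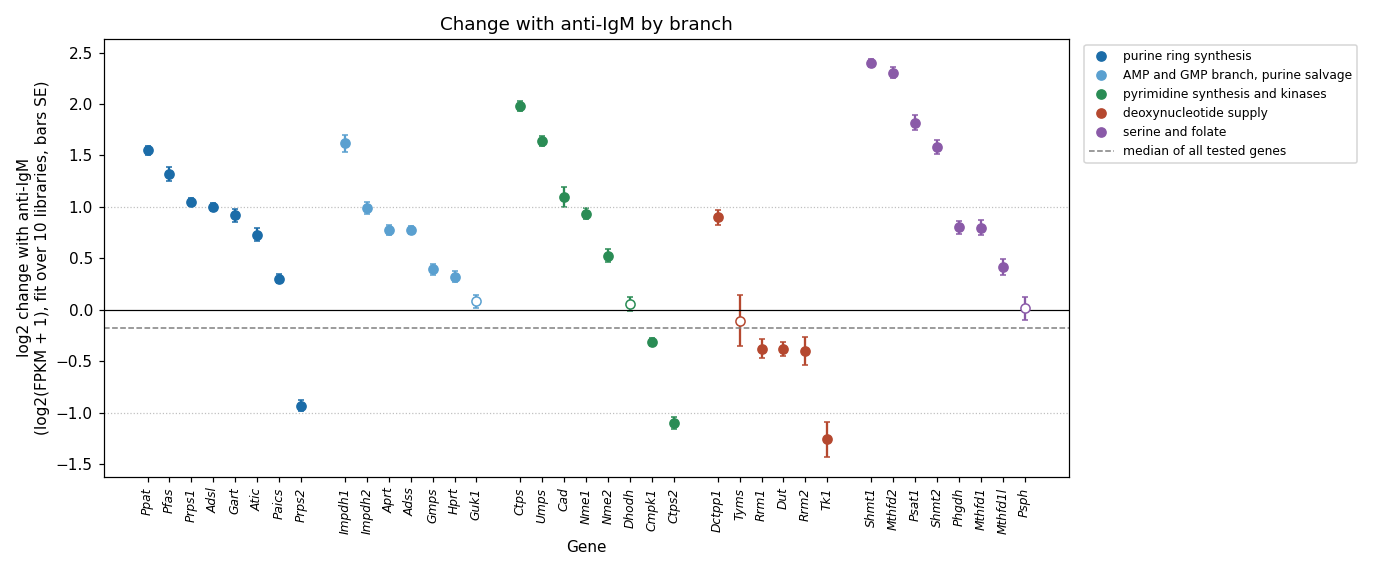
Log2 change with anti-IgM (log2(FPKM + 1), 8 stimulated against 2 unstimulated libraries, bars are the SE) of each gene, by branch. Filled points passed at an adjusted p under 0.05, and the dashed line is the median of all tested genes (-0.17). Serine and folate genes reach 2.399, and deoxynucleotide genes other than Dctpp1 lie below 0, of which Rrm2 lies above 0 after quantile normalization and Tyms, which did not pass, lies above 0 after quantile normalization and with median-of-ratios scaling.

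Purine ring synthesis begins with PRPP synthetase, which makes the activated ribose phosphate, and its 2 genes moved in opposite directions. Prps1 (chrX:140456613-140476140, plus strand of GRCm38) stood at 31.6 FPKM in the wild-type and 32.8 FPKM in the knockout-labelled unstimulated library and at 65.7 to 70.3 FPKM in the stimulated ones, a change of 1.05 (SE 0.0388, limma adjusted p = 8.86e-10). Prps2 (chrX:167346322-167382749, minus strand) stood at 23.8 FPKM in the wild-type and 20.2 FPKM in the knockout-labelled unstimulated library. After anti-IgM it was at 12.4, 11.6, 12.1 and 11.2 FPKM in wild-type libraries A to D, and 9.95, 10.7, 10.3 and 10.2 FPKM in the knockout-labelled ones, a change of -0.93 (SE 0.0512, limma adjusted p = 1.90e-08). No stimulated library overlapped an unstimulated one for either gene. The ratio of Prps1 to Prps2 was 1.33 in the wild-type and 1.62 in the knockout-labelled unstimulated library and 5.34 to 6.81 after anti-IgM. Their coding sequences are 79.9% identical over 957 bases, with no identical run over 20 bases. The 250 bases before each start site (RefSeq, GRCm38.p6) are shown because the pair moved apart. Capitals mark a match to TGATGNAA, the core of the amino acid response element that ATF4 binds:
Prps1, chrX:140456353-140456602, plus strand: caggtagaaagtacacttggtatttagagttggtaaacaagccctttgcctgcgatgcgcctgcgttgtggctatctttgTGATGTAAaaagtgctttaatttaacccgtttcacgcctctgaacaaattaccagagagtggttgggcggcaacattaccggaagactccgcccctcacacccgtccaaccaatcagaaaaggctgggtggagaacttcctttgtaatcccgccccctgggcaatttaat
Prps2, chrX:167382750-167382999, minus strand: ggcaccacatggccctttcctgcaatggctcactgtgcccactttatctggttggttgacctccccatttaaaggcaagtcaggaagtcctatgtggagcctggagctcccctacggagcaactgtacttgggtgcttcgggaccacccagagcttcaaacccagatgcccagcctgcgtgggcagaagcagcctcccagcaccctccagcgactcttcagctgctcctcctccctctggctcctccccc

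The enzyme that commits PRPP to the purine ring is PRPP amidotransferase, encoded by Ppat (chr5:76913249-76951578, minus strand), at 17.1 FPKM in the wild-type and 16.6 FPKM in the knockout-labelled unstimulated library. After anti-IgM it stood at 51.1, 53.4, 55.1 and 49.9 FPKM in wild-type libraries A to D, and 49.7, 49.03, 50.6 and 51.98 FPKM in the knockout-labelled ones. All 8 were about 3 times the unstimulated level, a change of 1.55 (SE 0.04401, limma adjusted p = 1.56e-10). Pfas, which makes the fourth step (chr11:68985697-69008460, minus strand), stood at 8.66 FPKM in the wild-type and 10.5 FPKM in the knockout-labelled unstimulated library. It reached 26.99, 25.2, 24.9 and 24.7 FPKM in wild-type and 24.1, 24.96, 23.9 and 27.3 FPKM in knockout-labelled libraries A to D, a change of 1.32 (SE 0.0693, limma adjusted p = 1.32e-08). Here too stimulated and unstimulated libraries did not overlap. Adsl, the lyase that acts both in the ring pathway and on the way to AMP, rose by 1.002 (SE 0.0409, limma adjusted p = 1.91e-09), at the threshold of 1. Gart, which carries 3 activities of the pathway, rose by 0.92 (SE 0.0604, limma adjusted p = 8.43e-08) and lay just under it. Atic, which closes the ring, rose by 0.73. Paics, which supplies the carboxylase and SAICAR synthetase steps, had the smallest rise of the branch, from 69.7 and 62.5 FPKM to 77.7 to 86.6 FPKM, a change of 0.30 (SE 0.0465, limma adjusted p = 0.000101) that was 0.17 after quantile normalization, 0.47 with TPM and 0.48 with median-of-ratios scaling.

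Ppat and Paics lie head to head on chromosome 5 on opposite strands, with RefSeq start sites 276 bases apart, and their exons share 272 bases. They rose unequally: the ratio of Ppat to Paics was 0.245 and 0.266 before and 0.5902 to 0.649 after anti-IgM. The shared bases are 6.15% of the exon bases of Ppat and 8.67% of those of Paics. Use of strand in counting is not given in the sources used here, so reads there may have been counted for either gene. In all, 7 of the 37 genes share exon bases on the opposite strand with another gene of the table: Ppat, Paics, Impdh2, Tk1, Psph, Shmt1 and Shmt2.

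In the branch from IMP, the genes for IMP dehydrogenase, the rate-limiting enzyme of GMP synthesis, rose most. Impdh1 (chr6:29200434-29216364, minus strand) stood at 16.2 FPKM in the wild-type and 24.8 FPKM in the knockout-labelled unstimulated library. It reached 63.4, 61.1, 59.5 and 61.9 FPKM in wild-type and 66.8, 63.4, 70.2 and 64.3 FPKM in knockout-labelled libraries A to D, a change of 1.62 (SE 0.0856, limma adjusted p = 1.38e-08), with no overlap between stimulated and unstimulated libraries. Impdh2, the isoenzyme usually tied to dividing cells, was the higher of the pair in every library. It went from 86.5 and 108 FPKM to 188 to 199 FPKM, a change of 0.99 (SE 0.0612, limma adjusted p = 5.09e-08). Further along, Gmps, GMP synthetase, rose by 0.39 and Adss, adenylosuccinate synthetase, by 0.77. Of the salvage enzymes, which reuse free bases, Aprt (adenine) rose by 0.78 and Hprt (hypoxanthine and guanine) by 0.32, the latter not passing after quantile normalization (0.12, limma adjusted p = 0.0665). Guk1, guanylate kinase, stood at 25.9 FPKM in the wild-type and 29.2 FPKM in the knockout-labelled unstimulated library and at 26.9 to 31.2 FPKM after anti-IgM, and did not pass (0.084, limma adjusted p = 0.228). It passed as higher with TPM (0.25, limma adjusted p = 0.0169) and with median-of-ratios scaling (0.26, limma adjusted p = 0.00265).

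Pyrimidine synthesis showed rises in the multifunctional enzymes at both ends of the route to UMP, while the step between them passed under some scalings only. Cad (chr5:31054780-31078479, plus strand), which joins the first 3 activities, stood at 9.01 FPKM in the wild-type and 13.04 FPKM in the knockout-labelled unstimulated library. It reached 26.1, 24.5, 23.8 and 25.2 FPKM in wild-type and 24.1, 23.9, 23.3 and 24.1 FPKM in knockout-labelled libraries A to D, a change of 1.097 (SE 0.0946, limma adjusted p = 8.29e-07). Umps (chr16:33954782-33967038, minus strand), the UMP synthase that ends the route, stood at 13.3 FPKM in the wild-type and 12.97 FPKM in the knockout-labelled unstimulated library. After anti-IgM it was at 43.8, 42.96, 48.02 and 43.7 FPKM in wild-type and 41.7, 39.5, 43.1 and 42.5 FPKM in knockout-labelled libraries, a change of 1.64 (SE 0.0504, limma adjusted p = 2.64e-10). For both genes every stimulated library lay above both unstimulated ones. Dhodh, the mitochondrial dehydrogenase between them, lay at 7.58 FPKM in the wild-type and 8.79 FPKM in the knockout-labelled unstimulated library and at 7.84 to 9.24 FPKM after anti-IgM (0.058, limma adjusted p = 0.461), so its groups overlapped. It passed as higher after quantile normalization (0.38, limma adjusted p = 0.000304) and with median-of-ratios scaling (0.22, limma adjusted p = 0.0112).

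CTP synthase, which turns UTP into CTP, is encoded by a second pair whose members moved in opposite directions. Ctps (chr4:120539868-120570276, minus strand) stood at 21.5 FPKM in the wild-type and 24.4 FPKM in the knockout-labelled unstimulated library. It reached 91.5, 90.2, 96.6 and 91.3 FPKM in wild-type and 93.97, 89.8, 94.4 and 98.03 FPKM in knockout-labelled libraries A to D, a change of 1.98 (SE 0.0476, limma adjusted p = 5.88e-11). Ctps2 (chrX:162901238-163032508, plus strand) started at the same level, at 20.4 FPKM in the wild-type and 21.1 FPKM in the knockout-labelled unstimulated library. It ended at 9.100, 9.87, 9.19 and 9.13 FPKM in wild-type and 9.48, 8.48, 8.77 and 9.28 FPKM in knockout-labelled libraries A to D, a change of -1.102 (SE 0.0566, limma adjusted p = 1.10e-08). The ratio of Ctps to Ctps2 went from 1.05 and 1.16 to between 9.14 and 10.8, so near parity became a difference of about 10 times. The fall of Ctps2 was under 1 in size with a pseudocount of 5, with TPM, after quantile normalization and with median-of-ratios scaling, and Ctps2 fell in each of these. The coding sequences of the pair are 69.7% identical over 1761 aligned bases. The 250 bases before the most upstream RefSeq start of Ctps and the most downstream of 3 starts of Ctps2 are shown for the same reason as above, and hold none of the motifs searched:
Ctps, chr4:120570277-120570526, minus strand: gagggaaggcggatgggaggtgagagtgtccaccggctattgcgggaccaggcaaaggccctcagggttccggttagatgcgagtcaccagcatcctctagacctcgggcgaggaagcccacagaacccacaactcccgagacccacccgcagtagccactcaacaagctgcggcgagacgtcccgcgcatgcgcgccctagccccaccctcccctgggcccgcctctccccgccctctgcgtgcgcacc
Ctps2, chrX:162901921-162902170, plus strand: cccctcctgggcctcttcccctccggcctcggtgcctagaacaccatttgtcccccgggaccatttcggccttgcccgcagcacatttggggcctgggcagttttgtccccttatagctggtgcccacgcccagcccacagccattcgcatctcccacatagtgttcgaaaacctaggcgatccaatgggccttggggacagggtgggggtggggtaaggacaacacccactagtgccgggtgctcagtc

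**Figure D3:**
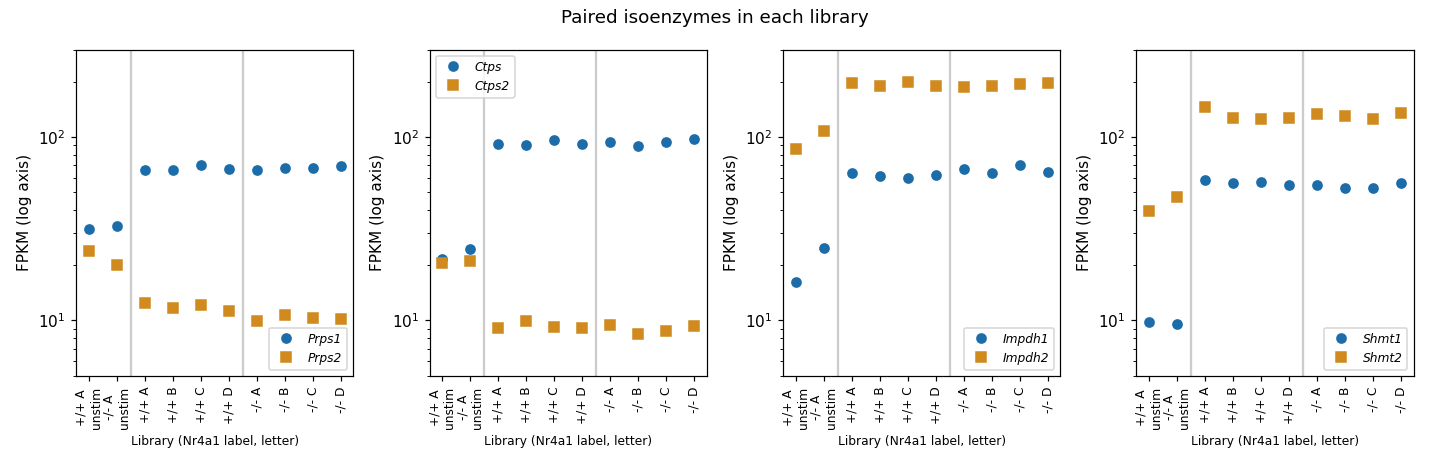
Level (FPKM, log axis) of 4 isoenzyme pairs in each library: 2 unstimulated, then 4 wild-type and 4 knockout-labelled libraries after anti-IgM. Prps1 and Prps2, and Ctps and Ctps2, separate after anti-IgM because one rises and the other falls, while Impdh1 and Impdh2, and Shmt1 and Shmt2, rise together.

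The kinases that follow differed. Cmpk1, which phosphorylates UMP and CMP, fell from 72.7 and 63.5 FPKM to 49.04 to 60.6 FPKM, a change of -0.31 (SE 0.0431, limma adjusted p = 4.31e-05) that was -0.15 with TPM and -0.14 with median-of-ratios scaling. Nme1 rose by 0.94 (SE 0.05004, limma adjusted p = 1.51e-08) to 152 to 169.9 FPKM, and Nme2 by 0.53 (0.35 after quantile normalization). The coding sequences of Nme1 and Nme2, neighbours on chromosome 11, are 80.0% identical, and a read-through gene model covers 48.9% of the exon bases of Nme2, so the split of reads between them is uncertain.

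Deoxynucleotide supply was the branch with most falls on the deposited scale, 4 of 6 genes, and 2 or 3 fell under the other scalings. Tk1 (chr11:117815526-117826092, minus strand), the thymidine kinase of S phase, stood at 8.99 FPKM in the wild-type and 6.73 FPKM in the knockout-labelled unstimulated library. After anti-IgM it was at 2.48, 4.04, 3.27 and 2.91 FPKM in wild-type libraries A to D, and 2.81, 2.84, 2.24 and 1.41 FPKM in the knockout-labelled ones, all below both unstimulated libraries, a change of -1.26 (SE 0.172, limma adjusted p = 4.00e-05). It was -0.73 with a pseudocount of 5 and -0.91 after quantile normalization. The subunits of ribonucleotide reductase moved less. Rrm1, the large subunit, was at 17.6 FPKM in the wild-type and 16.5 FPKM in the knockout-labelled unstimulated library. It was at 12.9, 13.2, 13.2 and 13.03 FPKM in wild-type and 11.7, 15.9, 11.96 and 11.8 FPKM in knockout-labelled libraries A to D after anti-IgM, a change of -0.38 (SE 0.0933, limma adjusted p = 0.00317). Rrm2, the small subunit, changed by -0.40 (SE 0.139, limma adjusted p = 0.0209), from 4.900 and 4.95 FPKM to 2.56 to 4.48 FPKM. Dut, which removes dUTP, changed by -0.38 (SE 0.0696, limma adjusted p = 0.000374), from 8.43 and 8.41 FPKM to 5.44 to 6.74 FPKM. For Rrm1, Rrm2 and Dut the stimulated libraries lay below both unstimulated ones on the deposited scale. The call of Rrm1 was lost with TPM (limma adjusted p = 0.0645) and that of Dut after quantile normalization (-0.056, limma adjusted p = 0.422). With median-of-ratios scaling both kept it at smaller changes, -0.208 for Rrm1 and -0.225 for Dut. Rrm2 was lost with TPM, with median-of-ratios scaling and without the knockout-labelled unstimulated library (limma adjusted p of 0.127, 0.105 and 0.202), and its direction turned after quantile normalization (0.015, limma adjusted p = 0.919). Dctpp1, a pyrophosphatase that clears dCTP and its modified forms, was the exception and rose from 40.97 and 26.96 FPKM to 57.5 to 68.9 FPKM, a change of 0.90 (SE 0.0727, limma adjusted p = 4.94e-07).

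Within the knockout-labelled stimulated group, library B was the highest for Rrm1, Rrm2, Tyms, Tk1 and Dut. In the same library 12 mitosis genes, among them Mki67 and Top2a, summed to 62.7 FPKM, against 35.1 to 47.4 FPKM in the other 7 stimulated libraries and 48.7 and 46.7 FPKM in the wild-type and knockout-labelled unstimulated ones. Germinal centre B cell markers summed to 55.4 FPKM there, to 35.9 to 47.6 FPKM in the other 7 and to 51.5 and 47.1 FPKM in the unstimulated ones. Myeloid markers summed to 104 FPKM in it, against 24.5 to 70.5 FPKM in the rest of its group, and to 141 FPKM in wild-type library B, against 40.4 to 45.2 FPKM in the rest of that group. Their part in the levels of these enzymes was not tested. Without library B the changes with anti-IgM were -0.43 for Rrm1, -0.46 for Rrm2 and -0.40 for Dut, each with the call kept.

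**Figure D4:**
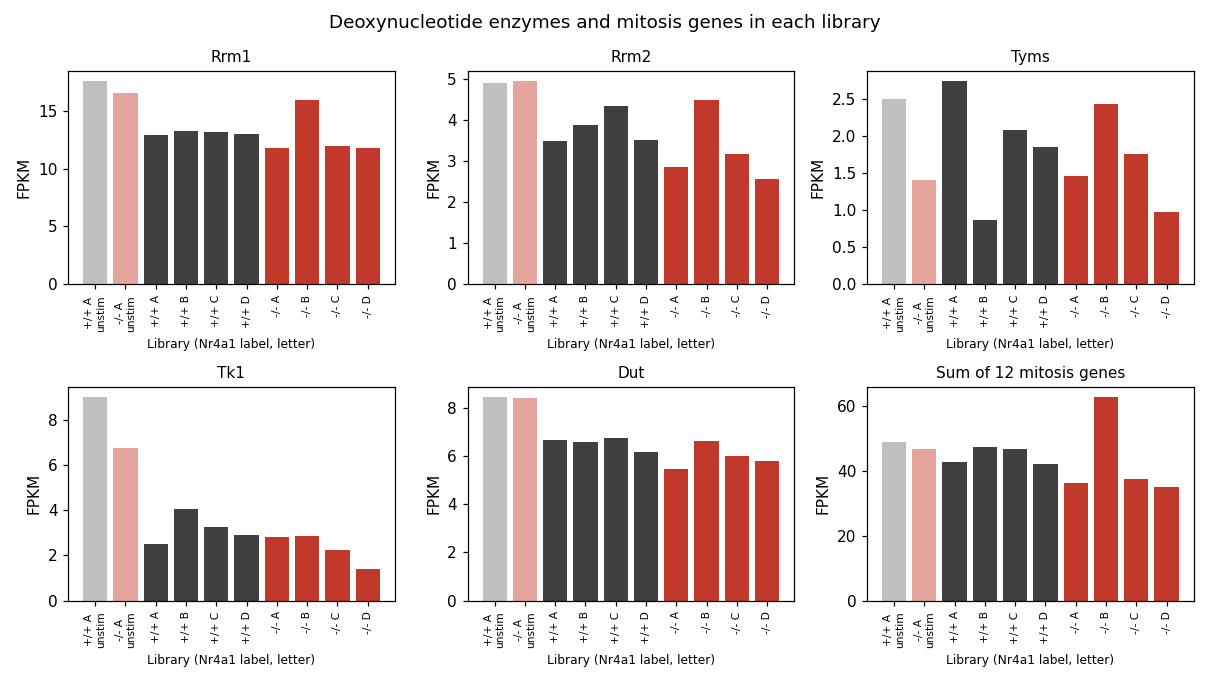
Level (FPKM) of 5 deoxynucleotide enzymes and the summed level of 12 mitosis genes in each library, 1 bar per library. Pale bars are the unstimulated libraries, dark grey wild type and red knockout-labelled after anti-IgM. Knockout-labelled library B is the highest of its group in each panel, at 15.9 FPKM for Rrm1 and 62.7 FPKM for the mitosis genes.

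The largest rises of the family were in mitochondrial and cytosolic one-carbon enzymes. Shmt1 (chr11:60788104-60811718, minus strand), the cytosolic serine hydroxymethyltransferase that moves a carbon from serine to folate, stood at 9.75 FPKM in the wild-type and 9.56 FPKM in the knockout-labelled unstimulated library. It reached 58.5, 56.2, 56.6 and 54.4 FPKM in wild-type and 54.5, 52.9, 52.8 and 55.8 FPKM in knockout-labelled libraries A to D, a change of 2.399 (SE 0.0404, limma adjusted p = 1.04e-11). Its mitochondrial counterpart Shmt2 (chr10:127517123-127522444, minus strand) stood higher throughout, at 39.4 FPKM in the wild-type and 47.05 FPKM in the knockout-labelled unstimulated library. Anti-IgM took it to 146, 127, 125 and 127 FPKM in wild-type and 134, 129.8, 126 and 135 FPKM in knockout-labelled libraries A to D, a change of 1.59 (SE 0.0673, limma adjusted p = 2.54e-09). Neither gene had a stimulated library near the unstimulated levels.

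Mthfd2 (chr6:83305691-83325908, minus strand), the mitochondrial dehydrogenase and cyclohydrolase best known from dividing and tumour cells, stood at 21.03 FPKM in the wild-type and 21.1 FPKM in the knockout-labelled unstimulated library. It reached 116, 108, 107 and 99.7 FPKM in wild-type and 109, 103, 109 and 113 FPKM in knockout-labelled libraries A to D. The change was 2.303 (SE 0.0531, limma adjusted p = 4.83e-11), and the lowest stimulated library was over 4 times the higher unstimulated one. Mthfd1, the cytosolic enzyme with 3 activities, rose by 0.80 to 30.5 to 34.1 FPKM. Mthfd1l, the mitochondrial formate-releasing synthetase that acts after Mthfd2, rose by 0.42 to 15.9 to 19.3 FPKM. The ratio of Mthfd2 to Mthfd1 accordingly went from 1.32 and 1.06 to between 3.17 and 3.57.

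Serine itself is made from a glycolytic intermediate in 3 steps, and their genes rose unequally. Phgdh, the first enzyme, went from 45.8 and 45.6 FPKM to 72.4 to 89.4 FPKM, a change of 0.80 (SE 0.0627, limma adjusted p = 3.60e-07). Psat1 (chr19:15904678-15947337, minus strand), the aminotransferase of the middle step, stood at 24.2 FPKM in the wild-type and 19.5 FPKM in the knockout-labelled unstimulated library. It reached 85.2, 80.9, 79.5 and 73.9 FPKM in wild-type and 80.1, 81.6, 71.1 and 80.8 FPKM in knockout-labelled libraries A to D, a change of 1.82 (SE 0.0734, limma adjusted p = 1.75e-09) with no overlap. Psph, the phosphatase that ends the route, lay at 6.04 FPKM in the wild-type and 4.74 FPKM in the knockout-labelled unstimulated library and at 4.61 to 6.39 FPKM after anti-IgM, and its groups overlapped (0.013, limma adjusted p = 0.918). It passed as higher after quantile normalization (0.404, limma adjusted p = 0.00887).

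Neighbouring enzymes outside the family were examined from lists set by function, beside the 31.2% of all tested genes that rose and the 47.7% that fell. Of 14 tested genes of the folate, methionine and glycine cycles, 8 rose and 4 fell, and 5 of the rises were of at least 1. The largest were Slc19a1, the reduced folate carrier (2.22, limma adjusted p = 1.17e-10), Mat2a, which makes S-adenosylmethionine (1.77, limma adjusted p = 3.08e-11), and Gcsh of the glycine cleavage system (1.53, limma adjusted p = 9.91e-10). The largest falls were Mat2b, the regulatory partner of Mat2a (-0.89), and Ggh (-0.68). Dld and Mthfs did not pass.

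Of 13 further genes of deoxynucleotide supply and control, 4 rose and 7 fell, which is near the shares of all tested genes, 3 and 5 of them by at least 1 (7.94% and 12.4% of all tested genes). The nucleoside transporters Slc29a1 (2.095, limma adjusted p = 1.40e-10) and Slc29a2 (1.51) rose, as did Dctd, dCMP deaminase (1.13). The falls were largest for Dck, deoxycytidine kinase (-2.04, limma adjusted p = 2.14e-07), Samhd1, which breaks down deoxynucleotide triphosphates (-1.88, limma adjusted p = 1.65e-10), and Rrm2b, the reductase subunit of resting cells (-1.31). Samhd1 went from 161 and 167 FPKM to 40.3 to 46.6 FPKM. The mitochondrial kinases Tk2 (-1.27) and Dguok (-1.07) fell as well. Like Tk1, Dck and Tk2 are salvage kinases, and all 3 fell while both transporters rose. Uck2, a salvage kinase of the next list, rose.

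Of 9 tested genes of pyrimidine salvage and breakdown, 2 rose and 5 fell, also near the shares of all tested genes. Uck2, the uridine and cytidine kinase, rose by 1.32 (SE 0.0635, limma adjusted p = 6.56e-09), and Tymp by 0.65. Cmpk2 (-1.26), Nme3 (-1.09) and Nme7 (-1.02) fell most. Of 15 tested genes of purine interconversion and breakdown, 6 rose and 5 fell. Ampd2, an AMP deaminase (1.09), and Ak6 (0.69) rose most, and Ak3 (-1.32) and the PRPP synthetase-associated genes Prpsap2 (-0.61) and Prpsap1 (-0.60) fell most. Prpsap1 and Prpsap2 thus fell with Prps2 and not with Prps1.

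Transcription factors known to act on these enzymes were listed too. Myc, which binds the E-box CACGTG with its partner Max, rose by 3.33 (SE 0.0762, limma adjusted p = 4.82e-11), from 61.5 and 88.9 FPKM to 683 to 827 FPKM. Ddit3, a transcription factor of the stress response, rose by 1.58 (SE 0.0397, limma adjusted p = 7.45e-11), and Atf4, which drives serine and one-carbon genes in the amino acid response, rose by 1.24 (SE 0.0433, limma adjusted p = 5.80e-10), from 206 and 237 FPKM to 497 to 569.6 FPKM. Of 10 tested regulators 6 rose and 3 fell, beside 31.2% and 47.7% of all tested genes. The falls were those of the Myc antagonists Mxd4 (-1.95), Mxi1 (-1.49) and Mxd1 (-0.19), of which Mxd1 lay above 0 after quantile normalization. With TPM, with median-of-ratios scaling, after quantile normalization and without library B of either genotype, 2 fell, both by at least 1. In these settings 5 or 6 rose.

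Promoter windows of 300 bases (250 before to 50 after the start, RefSeq, GRCm38.p6) were at hand for 35 of the 37 genes, Pfas and Dhodh being the others. Both strands were searched for CACGTG, for TGATGNAA and for the E2F-like words TTTGGCGC, TTTCCCGC, TTTGGCGG and TTTCCCGG, and no match overlapped another. CACGTG was found in 5 of 35 genes (14.3%), Atic, Impdh2, Nme1, Paics and Tyms, in 12.8% of the 7895 tested genes with a window and in 8.09% of the 27025 genes of the promoter table. The count is near the share of tested genes. Of these 5, 4 rose with anti-IgM by 0.30 to 0.99 and Tyms did not pass. Among the 11 genes with a window that rose by at least 1, 0 held it. TGATGNAA was found in 1 of 35 (2.86%), Prps1, in 2.82% of tested genes with a window and in 4.51% of the table. An E2F-like word was found in 2 of 35 (5.71%), Ppat and Prps2, in 7.31% of tested genes with a window and in 3.79% of the table. A match is a description of letters in this window, and no match says nothing of sites elsewhere. Of the tested genes 77.5% had a window, and the shares of tested genes cover those alone. The CACGTG matches are printed with 12 bases on either side, and the E2F-like ones (GCGGGAAA is TTTCCCGC read on the other strand) within 30 bases, with the match in capitals, because these are the words by which the listed factors would be sought:
Atic, chr1:71557137-71557166, plus strand: ggacctcggggtCACGTGgggtcgacacgc
Impdh2, chr9:108560314-108560343, plus strand: gagctcgataagCACGTGgttacccagctc
Nme1, chr11:93968037-93968066, minus strand: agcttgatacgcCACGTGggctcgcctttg
Nme1, chr11:93968273-93968302, minus strand: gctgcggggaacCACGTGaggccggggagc
Paics, chr5:76951087-76951116, plus strand: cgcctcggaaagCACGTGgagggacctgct
Tyms, chr5:30073669-30073698, minus strand: aaccacttctgtCACGTGggggcggggtct
Ppat, chr5:76951771-76951800, minus strand: gagcagaccgcGCGGGAAAaaagggcagtg
Ppat, chr5:76951718-76951747, minus strand: aggatcagaggGCGGGAAAgggaggtgcaa
Prps2, chrX:167382700-167382729, minus strand: cctgctgctgcgtTTTCCCGCttcaccagc

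The second comparison asks which genes differed between genotypes after anti-IgM, with 4 libraries against 4 and replicates on both sides. Of the 37 genes, 0 were higher in the knockout-labelled libraries in limma's test at an adjusted p under 0.05, where 3.91% of all tested genes were, and 3 were lower, where 5.81% were. At an unadjusted p under 0.05 in the same test, 1 was higher (Impdh1) and 5 were lower, where 2262 of the 10225 tested genes passed in either direction. For 4 genes the 2 groups of 4 libraries were fully separate, all lower in the knockout-labelled libraries (9.57% of all tested genes were), and 0 were separate and higher (5.96% of all tested genes). These shares are near those of all genes. The median difference was -0.044 over the 37 genes and -0.024 over all tested genes, and with median-of-ratios scaling it was -0.0096 and 0.0084. Over all tested genes 40.2% of calls were higher on the deposited scale, 52.2% after quantile normalization and 57.2% with median-of-ratios scaling.

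Dctpp1 (chr7:127256959-127260709, minus strand) was at 68.9, 66.9, 65.2 and 66.5 FPKM in wild-type libraries A to D, and 57.9, 60.9, 57.5 and 59.7 FPKM in the knockout-labelled ones. Wild type averaged 66.9 ± 1.56 FPKM (SD, n = 4), the others 59.01 ± 1.59 FPKM (SD, n = 4), with no overlap, a difference of -0.18 (SE 0.0281, limma adjusted p = 0.00354). Cmpk1 (chr4:114959336-114987241, minus strand) was at 58.02, 60.6, 60.6 and 55.9 FPKM in wild-type and 49.04, 51.9, 49.5 and 52.2 FPKM in knockout-labelled libraries. Wild type averaged 58.8 ± 2.28 FPKM (SD, n = 4), the others 50.7 ± 1.61 FPKM (SD, n = 4), again with no overlap, a difference of -0.21 (SE 0.0349, limma adjusted p = 0.00467). Prps2, whose values are given above, averaged 11.8 ± 0.532 FPKM (SD, n = 4) in wild type against 10.3 ± 0.318 FPKM (SD, n = 4) and did not overlap, a difference of -0.18 (SE 0.0428, limma adjusted p = 0.0264). Both Dctpp1 and Cmpk1 passed in 19 of 19 alternative settings, and Prps2 in 11 of 19. The call of Prps2 was lost without wild-type library A, B or C and without knockout-labelled library A, C or D (limma adjusted p of 0.0708, 0.0570, 0.0721, 0.0750, 0.0581 and 0.0667). Over its 19 alternatives the adjusted p ran from 0.0214 to 0.0856. The fourth gene without overlap was Atic (-0.084 (SE 0.0325, limma adjusted p = 0.163)), which did not pass. Without knockout-labelled library B the 3 differences were -0.19 for Dctpp1, -0.22 for Cmpk1 and -0.20 for Prps2, each with the call kept. Without wild-type library B, Dctpp1 (-0.18) and Cmpk1 (-0.19) kept theirs.

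The genes with the largest changes with anti-IgM differed little between genotypes. Wild-type libraries averaged 56.4 ± 1.68 FPKM (SD, n = 4) for Shmt1, against 54.00 ± 1.44 FPKM (SD, n = 4) in knockout-labelled ones, and the 95% interval of the difference was -0.13 to 0.0052. For Mthfd2 the averages were 108 ± 6.89 FPKM (SD, n = 4) against 109 ± 3.85 FPKM (SD, n = 4), with an interval of -0.089 to 0.12. For Ctps they were 92.4 ± 2.86 FPKM (SD, n = 4) against 94.04 ± 3.39 FPKM (SD, n = 4), with an interval of -0.049 to 0.099. Intervals of 31 of the 37 genes included 0. An interval leaves 0 out when the unadjusted limma p is under 0.05, as for 2262 of the 10225 tested genes. Intervals of 34 of the 37 lay within 0.3 of 0 on the log2 scale. The other 3 were the low genes Rrm2, Tyms and Tk1, of which Tk1 had an interval of -0.71 to 0.027. All 6 deoxynucleotide genes had a lower fitted level in the knockout-labelled libraries (5 of 6 after quantile normalization, where Rrm1 was above 0), and Dctpp1 was the one that passed. Lower was the common direction on the deposited scale, held by 26 of the 37 genes and 6243 of the 10225 tested genes (4857 after quantile normalization). Without knockout-labelled library B the difference went from -0.034 to -0.13 for Rrm1 (limma adjusted p from 0.863 to 0.0503), from -0.19 to -0.31 for Rrm2 (0.435 to 0.0599) and from -0.10 to -0.24 for Tyms (0.835 to 0.583), none of which passed.

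**Figure D5:**
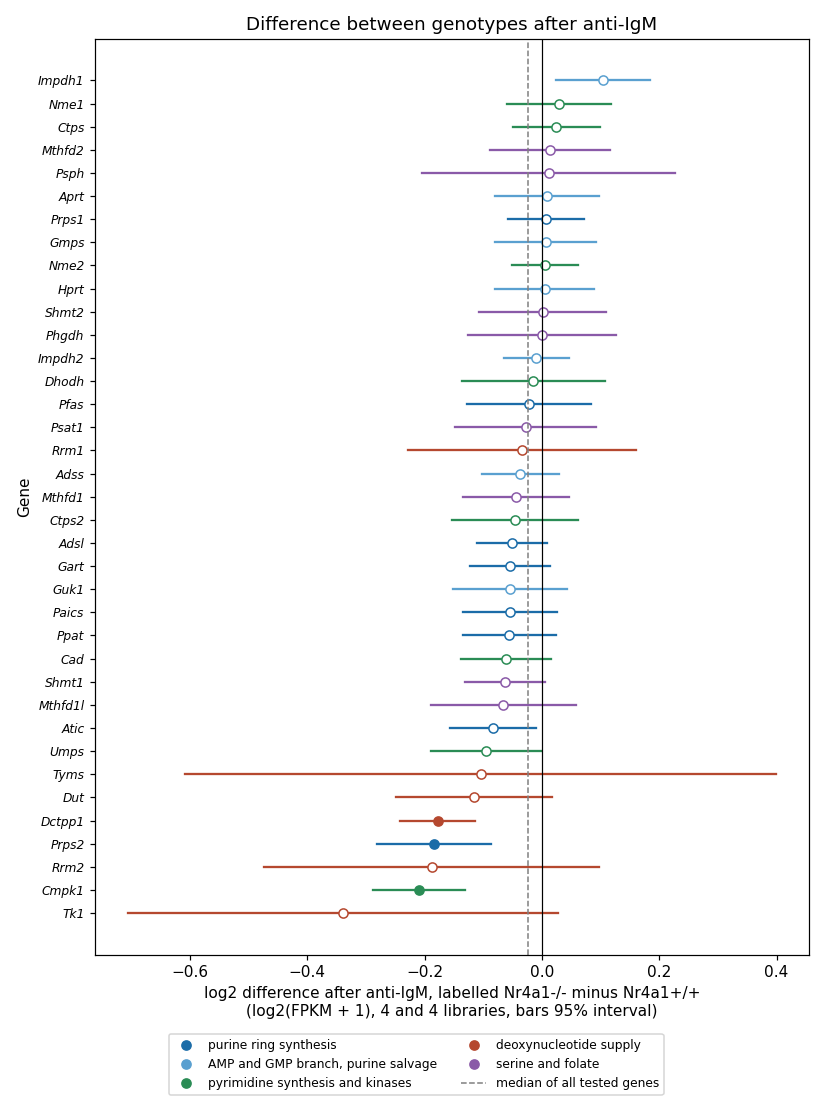
Log2 difference between 4 knockout-labelled and 4 wild-type libraries after anti-IgM (log2(FPKM + 1)) for each gene, with its 95% interval, coloured by branch. Filled points passed at an adjusted p under 0.05: Dctpp1, Cmpk1 and Prps2, all lower. The dashed line is the median of all tested genes (-0.024).

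Of the neighbouring enzymes, the mitochondrial folate carrier Slc25a32 was higher in the knockout-labelled libraries (0.25, limma adjusted p = 0.00633), and Fpgs, which adds glutamates to folate (-0.20, limma adjusted p = 0.0229), Mat2b (-0.13, limma adjusted p = 0.0378) and Cmpk2 (-0.41, limma adjusted p = 0.0394) were lower. In the folate, methionine and glycine list 1 gene was called higher and 2 lower with all stimulated libraries. Without knockout-labelled library B, 1 was called higher and 1 lower. The same was seen with values quantile normalized, rescaled to TPM or scaled by median-of-ratios. Without wild-type library B, 1 was called higher and 2 lower. Cmpk2, the 1 gene called in the pyrimidine salvage and breakdown list, lost its call when quantile normalized and without wild-type library B. Of all tested genes 3.91% were called higher and 5.81% lower. Atf4 was higher by 0.11 (limma adjusted p = 0.0495), and Myc by 0.12, which did not pass (limma adjusted p = 0.06102). The call of Atf4 was lost with median-of-ratios scaling, after quantile normalization and without wild-type library B, where no regulator was called higher.

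Before anti-IgM there was 1 library of each genotype, so these values are descriptions of single libraries. The median size of the difference over the 37 genes was 0.18 in this pair and 0.046 between the stimulated groups. The latter is between means of 4 libraries, which vary less than single libraries, so the 2 sizes do not compare genotype effects. In 9 genes the difference in the unstimulated pair was at least 0.3 in either direction. Impdh1 (0.58), Cad (0.49), Impdh2 (0.32) and Mthfd1 (0.30) were higher in the knockout-labelled library. Dctpp1 (-0.59), Tyms (-0.53), Tk1 (-0.37), Nme2 (-0.34) and Psat1 (-0.30) were lower in it. The 3 genes called lower after anti-IgM, Dctpp1, Cmpk1 and Prps2, were lower in this library too, at 26.96 against 40.97 FPKM, 63.5 against 72.7 FPKM and 20.2 against 23.8 FPKM. Responses set side by side had a median of 0.75 in wild type and 0.77 in the knockout-labelled libraries. Of the 37 genes, 33 had the same sign in both, a share that was not counted over all tested genes. The other 4 were those that did not pass in the stimulation comparison. The change fitted there is the average of the 2 responses, so opposite signs place a gene near 0 and make a call unlikely. Impdh1 changed by 1.86 and 1.38, Cad by 1.37 and 0.82, and Dctpp1 by 0.69 and 1.101. Each response rests on 1 unstimulated library, and the difference between responses was not tested.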

How the data were processed

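The authors deposited FPKM per gene for 10 libraries, which per the labels' protocols were prepared with a TruSeq stranded mRNA kit. Per the submitters' processing notes, STAR 2.4, RSEM 1.2.14 and build mm10 were used; how strand was used, and with which annotation, is not given in the sources used here. FPKM are not counts, so limma 3.58.1 (R 4.3.3) was fitted with an intensity trend to log2(FPKM + 1) of the 10225 genes averaging 1 FPKM or more. The stimulation fit used all 10 libraries with genotype as a term, the genotype fit the 8 stimulated ones. Tests were two-sided, with Benjamini-Hochberg adjustment over all tested genes and calls at an adjusted p under 0.05. The fit was tested on simulated data. Alternatives were a pseudocount of 0.1 or 5, no filter, a filter at 5 FPKM, other scalings, other eBayes settings, the letter as a block, no genotype term, all 10 libraries in the genotype fit, and each library left out. Gene positions come from GENCODE M21 (GRCm38), the assembly that mm10 names. The members, branches and lists were chosen with earlier results of these data known. Per-library values are given for the genes called with anti-IgM at a change of at least 1 (the 12 largest), those called between genotypes, and the highest and lowest gene; neighbouring lists are represented by the largest called changes each way, and some genes of these lists are not reported here.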

Additional observations from a re-analysis of the deposited data

Results flagged for a closer look

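In 6 of 74 groups of 4 stimulated libraries, 1 library lay far from the other 3, where chance gives about 1 in 20, or 3.7 here. In wild-type library A, Nme1 was at 162 FPKM (the other 3 at 154 to 155) and Shmt2 at 146 FPKM (125 to 127). In wild-type library B, Ctps2 was at 9.87 FPKM (9.10 to 9.19). In knockout-labelled libraries, Rrm1 was at 15.9 FPKM in library B (11.7 to 11.96), Psat1 at 71.1 FPKM in library C (80.1 to 81.6) and Mthfd1 at 32.9 FPKM in library D (30.5 to 30.8). Rrm1 was highest in the library of its group with the highest summed mitosis genes, 62.7 FPKM against 35.1 to 37.4 FPKM in the other 3. Ctps2 was too, by a smaller margin of these genes, 47.4 FPKM in wild-type library B against 42.2 to 46.6 FPKM in the rest of that group. The part of the mitosis genes in either value was not tested.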

How the results depend on the processing

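The count of 12 genes that rose by at least 1 lay between 9 (pseudocount of 5) and 16 (TPM and median-of-ratios scaling), and between 11 and 14 when 1 library was left out. The 2 that fell by at least 1 became 0 with a pseudocount of 5 and after quantile normalization, and 1 with a mean of at least 5 FPKM, with TPM and with median-of-ratios scaling; the cause was not tested, except that Tk1 is not tested at a mean of at least 5 FPKM. Rises of any size numbered 26 to 28 and falls 5 to 7 in every setting run. Over 715 values of single genes, 700 kept direction and call, 14 lost the call and 1, Rrm2 after quantile normalization (0.015), turned direction. The genotype counts stayed at 0 higher and at 2 or 3 lower, with 2 in 6 of the 8 fits that left out a library, where Prps2 was lost. After quantile normalization Prps2 was lost and Nme2 was called lower (-0.057, limma adjusted p = 0.0456). No pairing by letter was seen: same-letter deviations correlated at -0.021, 0.045, 0.0070 and -0.122, and those of different letters at -0.087 to 0.122. Such correlations cannot exclude that libraries of a letter shared a day or preparation. With the letter as a replicate block 0 genes were higher and 2 lower, Prps2 having an adjusted p of 0.0856 in limma. Values near 1 FPKM, such as those of Tyms, limit what can be seen there, and the stimulation comparison rests on 2 unstimulated libraries, 1 per genotype.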

Other observations

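Genes of DNA replication were listed beside the enzymes and moved in both directions after anti-IgM. Of 15 tested genes of the G1/S list 6 rose and 4 fell in limma's test, beside 31.2% and 47.7% of all tested genes. With TPM and with median-of-ratios scaling 7 rose and 2 fell, and after quantile normalization 7 rose and 3 fell. Without knockout-labelled library B 6 rose and 6 fell, and without wild-type library B 6 rose and 3 fell. Pcna, the sliding clamp of the replication fork, rose by 0.84 (SE 0.0685, limma adjusted p = 5.10e-07), from 184 and 152 FPKM to 285 to 322 FPKM. The helicase genes Mcm2 (0.50), Mcm3 (0.62), Mcm5 (0.33) and Mcm6 (0.62) rose, while Mcm7 (-0.29) and Mcm4 (-0.20) fell on the deposited scale. E2f2 fell most (-1.55, limma adjusted p = 1.90e-08). Between genotypes after anti-IgM, Mcm6 was lower in the knockout-labelled libraries (-0.33 (SE 0.0458, limma adjusted p = 0.00171)) and Pcna was higher (0.10 (SE 0.0263, limma adjusted p = 0.0368)). Pcna lost its call after quantile normalization and without library B of either genotype, where no gene of the list was called higher. In each of these settings 1 gene of the list stayed called lower.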
